A study of Homo sapiens with 12 samples.

Results

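The Vitamin D receptor, its partners and the enzymes of Vitamin D metabolism were examined as a set of 10 named genes (VDR, RXRA, RXRB, CYP24A1, CYP27B1, CYP2R1, PDIA3, MED1, NCOA1 and SNW1) out of 63677 gene identifiers in the count data. The rule lists the genes by name and uses no measured value, although earlier results of these data were known when it was written, and their Ensembl identifiers were matched to symbols through GENCODE v44. All 10 had at least 1 count, and 9 of them were among the 17123 genes with enough counts to be tested, CYP24A1 being the exception. RNA-seq had been carried out in MiaPaca2, an established human pancreatic ductal adenocarcinoma (PDAC) cell line, to ask how epigenetic priming changes the response of the cells to Vitamin D. Unprimed cells had received the vehicle DMSO (Con) or calcipotriol (CPT), a Vitamin D analogue, at 1 µM. Primed cells had received 2 mM glyceryl triacetate (GTA), an acetate donor for histone acetylation, and 1 µM 5-Aza-2′-deoxycytidine (5-Aza), an inhibitor of DNA methylation, either alone (GTA+5-Aza) or together with 1 µM CPT (CPT+GTA+5-Aza). Each of the 4 groups had 3 libraries from cells treated for 24 h, all of this 1 line with the genotype WT, and the total count per library ran from 16162490 to 21224665.

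In the Vitamin D pathway, 25-hydroxylases such as CYP2R1 and the 1α-hydroxylase CYP27B1 convert Vitamin D to its active hormone, and CYP24A1 inactivates the hormone. The active form binds VDR, a nuclear receptor that pairs with a retinoid X receptor (RXR) on direct repeats in DNA and recruits coactivators, among them NCOA1, the Mediator subunit MED1 and SNW1, to switch target genes on. CYP24A1 is itself a classical VDR target, and calcipotriol acts as a VDR agonist. PDIA3, a disulfide isomerase of the endoplasmic reticulum (ER), has been described as a membrane-associated binding protein for the hormone. In PDAC, VDR ligands are known for their action on the stroma around the tumor, while their effects on the tumor cells themselves differ between cells.

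Of the 9 tested members, 3 passed the test for averaged priming. None passed for CPT, which does not show that their levels stayed the same. Averaged over cells with and without CPT, RXRB rose 1.26-fold in primed cells, while MED1 fell to 0.866 of its level in unprimed cells and SNW1 to 0.876, and all 3 passed the threshold of 0.05 on p values adjusted by the Benjamini-Hochberg method in the quasi-likelihood fit of edgeR. The 3 calls among 9 tested members stand beside a background of 30.9% of all tested genes in the same comparison, so the members' share was near the background. In bulk RNA a lower value cannot be told apart between fewer expressing cells and less RNA per cell, and since nothing states that the 3 libraries of a group came from separate cultures, the p-values measure the spread between these samples. By the direction of the change, 16.8% of all tested genes were called higher and 14% lower. VDR itself was a low-abundance transcript that passed in no comparison, and CYP24A1 was at 0 in 11 of the 12 libraries. No member reached the thresholds the study used for differentially expressed genes (DEGs), a fold change above 1.5 with an unadjusted P under 0.05, in any comparison. Of all tested genes, 9.6% reached them for averaged priming, 8.44% for priming without CPT, 8.67% with CPT and 8.32% for CPT+GTA+5-Aza against Con, and 1.83% reached them for CPT in unprimed cells, 1% in primed cells, 1.07% on average and 1.78% for the interaction.

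Because 5-Aza is built into DNA in place of cytosine and traps the enzymes that methylate cytosines before a guanine (CG), the promoter sequences of the 3 members that passed the test are shown with every CG in capitals. They are the RefSeq windows (GRCh38.p14) from 250 bases before to 50 bases after the gene start, in the direction of transcription. RefSeq windows were matched for 6 of the 10 genes, CYP2R1, MED1, NCOA1, RXRA, RXRB and SNW1. Some genes have several windows for alternative starts, and only the window nearest to the annotated gene start is printed.
RXRB (chr6:33200616-33200915, minus strand): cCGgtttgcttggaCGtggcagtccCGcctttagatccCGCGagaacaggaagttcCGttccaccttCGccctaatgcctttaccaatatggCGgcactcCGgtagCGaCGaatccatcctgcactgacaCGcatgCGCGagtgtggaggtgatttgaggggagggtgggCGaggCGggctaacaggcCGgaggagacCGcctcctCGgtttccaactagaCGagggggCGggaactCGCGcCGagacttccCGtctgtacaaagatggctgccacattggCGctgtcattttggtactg
MED1 (chr17:39451214-39451513, minus strand): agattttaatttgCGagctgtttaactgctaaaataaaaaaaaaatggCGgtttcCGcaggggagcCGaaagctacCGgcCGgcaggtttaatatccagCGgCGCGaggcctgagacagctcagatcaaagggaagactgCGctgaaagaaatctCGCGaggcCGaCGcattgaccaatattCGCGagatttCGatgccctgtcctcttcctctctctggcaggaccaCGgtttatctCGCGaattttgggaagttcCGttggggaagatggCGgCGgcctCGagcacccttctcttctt
SNW1 (chr14:77761107-77761406, minus strand): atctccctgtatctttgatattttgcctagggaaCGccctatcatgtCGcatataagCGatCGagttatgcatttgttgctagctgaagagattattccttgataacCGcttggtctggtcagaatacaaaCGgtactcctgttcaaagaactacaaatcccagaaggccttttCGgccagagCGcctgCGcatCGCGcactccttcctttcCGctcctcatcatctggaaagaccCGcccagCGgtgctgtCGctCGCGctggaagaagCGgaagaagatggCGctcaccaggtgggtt
The RXRB window holds 26 CG, the MED1 window 24 and the SNW1 window 19, and 30.1%, 33.9% and 42.9% of the 35116 promoter windows hold at least as many, the median window holding 14. All 3 printed windows thus held more CG than the median window, whether the gene rose or fell, and the window of the alternative RXRB start held 17. The nearest windows of the uncalled CYP2R1, NCOA1 and RXRA held 16, 55 and 65, so being above the median was not particular to the called genes. The RXRA window belongs to a start 9357 bases from the annotated gene start. Over all windows of the 6 genes the count ran from 0 in one NCOA1 window to 65 in one RXRA window, so it depends on the start that is used. Windows were also searched on both strands for the direct repeat to which VDR and RXR bind, the 6-base site AGGTCA given 2 times with a spacer of 3 bases. The best match had 4 mismatches in each printed window and from 3 to 5 over all windows of the 6 genes, called and uncalled alike, and 19.4% of all windows hold a match with at most 3. A match of letters is a description of the window and not a binding site, and its absence says only that these letters are not there.

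The members differed widely in their level. On the scale of CPM (read counts scaled to a common library total) per kb of merged exons, averaged over all 12 libraries, SNW1 was the highest at 43.7, followed by PDIA3 at 20.3, MED1 at 14.6, RXRB at 10.8 and RXRA at 7.51. CYP2R1 at 3.10 and NCOA1 at 3.08 lay together, since their ranges over the libraries (2.58 to 3.71 and 2.49 to 3.68 CPM per kb) overlapped. CYP27B1 at 0.302 and VDR at 0.282 lay together too (0.145 to 0.467 and 0.194 to 0.468 CPM per kb), and CYP24A1 was lowest at 0.00221. The merged length counts every annotated exon, which lowers the value of genes with many alternative exons. By CPM, VDR stood at percentile 20.3 and CYP27B1 at percentile 14.3 of all tested genes. The receptor and the enzyme that activates its hormone were thus low. The RXR partners of VDR, at percentiles 84.8 (RXRA) and 69.1 (RXRB), were abundant.

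**Figure D1:**
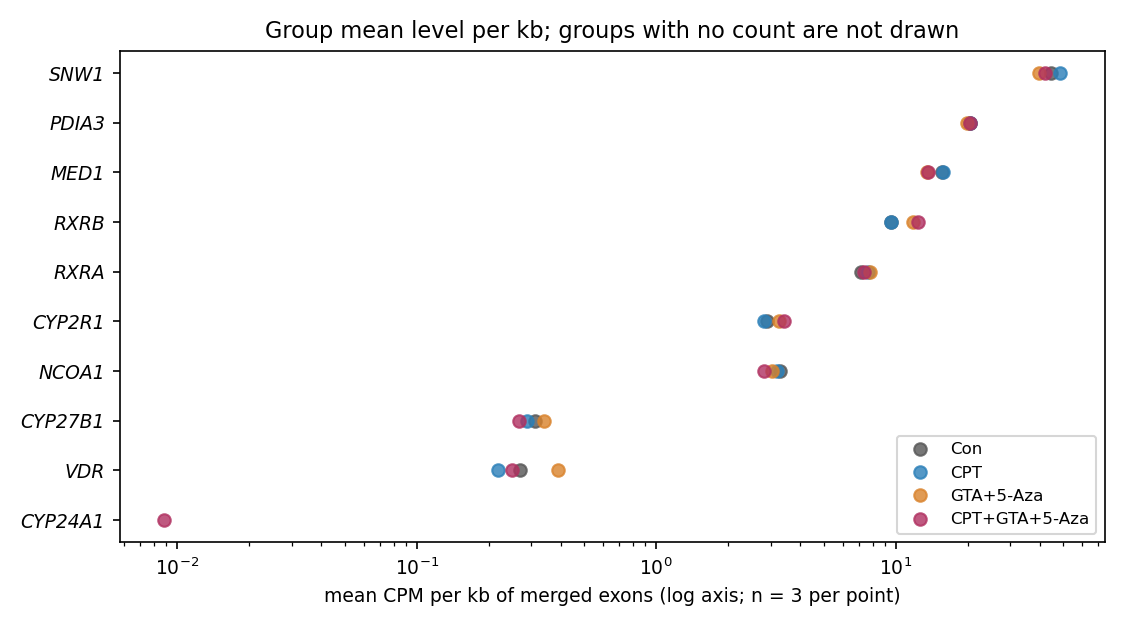
Mean level of each member in the 4 groups, in CPM per kb of merged exons on a log axis (points are means of 3 libraries; groups with no count are not drawn). The receptor VDR and the enzymes CYP27B1 and CYP24A1 sit below 1 CPM per kb in every group, and the other 7 members above it.

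VDR (ENSG00000111424, chr12:47841537-47943048, minus strand, GRCh38), the nuclear receptor of the hormone, had 20 to 53 counts per library. Its level was 1.53, 1.62 and 1.46 CPM in the Con libraries, 1.10, 1.43 and 1.20 in CPT, 1.55, 2.65 and 2.43 in GTA+5-Aza, and 1.48, 1.53 and 1.22 in CPT+GTA+5-Aza. The 2 highest libraries were both GTA+5-Aza, and the remaining library of that group lay within the range of Con. In order of mean level, the groups were GTA+5-Aza (2.21 ± 0.584 CPM, SD, n = 3), Con (1.53 ± 0.0812), CPT+GTA+5-Aza (1.41 ± 0.165) and CPT (1.24 ± 0.167), and each neighbouring pair in this order overlapped. Priming without CPT gave a fold change of 1.44 (log2 fold change 0.53, SE 0.36, 95% interval -0.22 to 1.27), which did not pass edgeR's quasi-likelihood test (adjusted p = 0.361). Priming with CPT gave 0.18 on the log2 scale (SE 0.38, interval -0.60 to 0.96, edgeR adjusted p = 0.805), and the average of both gave 0.35 (SE 0.26, interval -0.18 to 0.89, edgeR adjusted p = 0.337).

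With CPT, the 3 VDR values lay below the 3 values without CPT both in unprimed and in primed cells, a separation that 4.21% of all tested genes showed in this direction in unprimed and 4.74% in primed cells. The log2 fold change was -0.30 (SE 0.37) in unprimed cells and -0.64 (SE 0.37) in primed cells, and -0.47 (SE 0.26, interval -1.01 to 0.07) on average, with unadjusted P values of 0.429, 0.0917 and 0.0834 in edgeR's quasi-likelihood test and adjusted p values of 1 throughout at 3 digits. The primed and unprimed responses to CPT differed by -0.34 (interaction, SE 0.53, edgeR adjusted p = 1 at 3 digits), so a difference between them was not detectable. At 20 to 53 counts per library, the change measured in GTA+5-Aza could not be told from no change. Without GTA+5-Aza replicate 1, the lowest library of its group, the CPT response in primed cells became -0.84 with an unadjusted P of 0.0413, which meets the DEG thresholds, though not after adjustment (edgeR adjusted p = 1 at 3 digits).

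The genes whose pattern was most like that of VDR over the 12 libraries were MROH1 (Pearson's r = 0.878 of log2 CPM), LMTK3 (r = 0.863) and 3 identifiers without a symbol, ENSG00000230739, ENSG00000227278 and ENSG00000269807 (r = 0.879, 0.870 and 0.848). These were picked as the highest of all tested genes over libraries that share groups and depths, and they are given as a description only.

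Of the heterodimer partners, RXRB (ENSG00000204231, chr6:33193588-33200665, minus strand) rose with priming. It measured 34.0, 41.6 and 36.4 CPM in Con and 36.6, 39.9 and 35.7 in CPT, against 44.2, 44.6 and 49.7 in GTA+5-Aza and 48.9, 50.2 and 45.1 in CPT+GTA+5-Aza. All 6 primed libraries lay above all 6 unprimed ones, a separation that 8.04% of all tested genes showed in this direction. The log2 fold change was 0.33 on average (SE 0.07, interval 0.20 to 0.47, edgeR adjusted p = 0.000364). It was 0.30 (SE 0.09, edgeR adjusted p = 0.0257) without CPT and 0.36 (SE 0.10, edgeR adjusted p = 0.00869) with CPT, and CPT+GTA+5-Aza exceeded Con by 0.36 (SE 0.09, edgeR adjusted p = 0.00798). CPT left RXRB near its level, with log2 differences of 0.00 in unprimed cells (interval -0.19 to 0.20) and 0.06 in primed cells (interval -0.13 to 0.25).

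The averaged RXRB change passed under every alternative run. In the separate comparisons it passed in 16 of 20 alternatives without CPT, 19 of 20 with CPT and 19 of 20 for CPT+GTA+5-Aza against Con, always above 0. Without CPT it was 0.24 (edgeR adjusted p = 0.155) when Con replicate 1 was left out, 0.28 (edgeR adjusted p = 0.0989) without Con replicate 3, and 0.25 (edgeR adjusted p = 0.137) without GTA+5-Aza replicate 3. With CPT it was 0.33 (edgeR adjusted p = 0.0510) without CPT+GTA+5-Aza replicate 2, and for CPT+GTA+5-Aza against Con it was 0.30 (edgeR adjusted p = 0.0668) without Con replicate 1. RXRB shares 361 exonic bases (9.26% of its exons) with SLC39A7 on the opposite strand, and no strand setting of the counting is stated, so reads from the shared stretch cannot be assigned to either gene. SLC39A7 did not pass in the averaged comparison (log2 fold change 0.11, SE 0.06, edgeR adjusted p = 0.199).

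RXRA (ENSG00000186350, chr9:134317098-134440585, plus strand), the other expressed RXR, did not follow. Its libraries ran from 83.2 to 101 CPM, with group means of 86.7 ± 3.44 (SD, n = 3) in Con, 92.7 ± 7.42 in CPT, 94.6 ± 9.87 in GTA+5-Aza and 88.8 ± 5.01 in CPT+GTA+5-Aza, and the ranges of all groups overlapped. The averaged priming difference was 0.03 on the log2 scale (interval -0.09 to 0.15, edgeR adjusted p = 0.724), and CPT gave 0.10 in unprimed and -0.09 in primed cells (SE 0.08 each). RXRG, the third member of the receptor family, was at 0 in all 12 libraries.

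**Figure D2:**
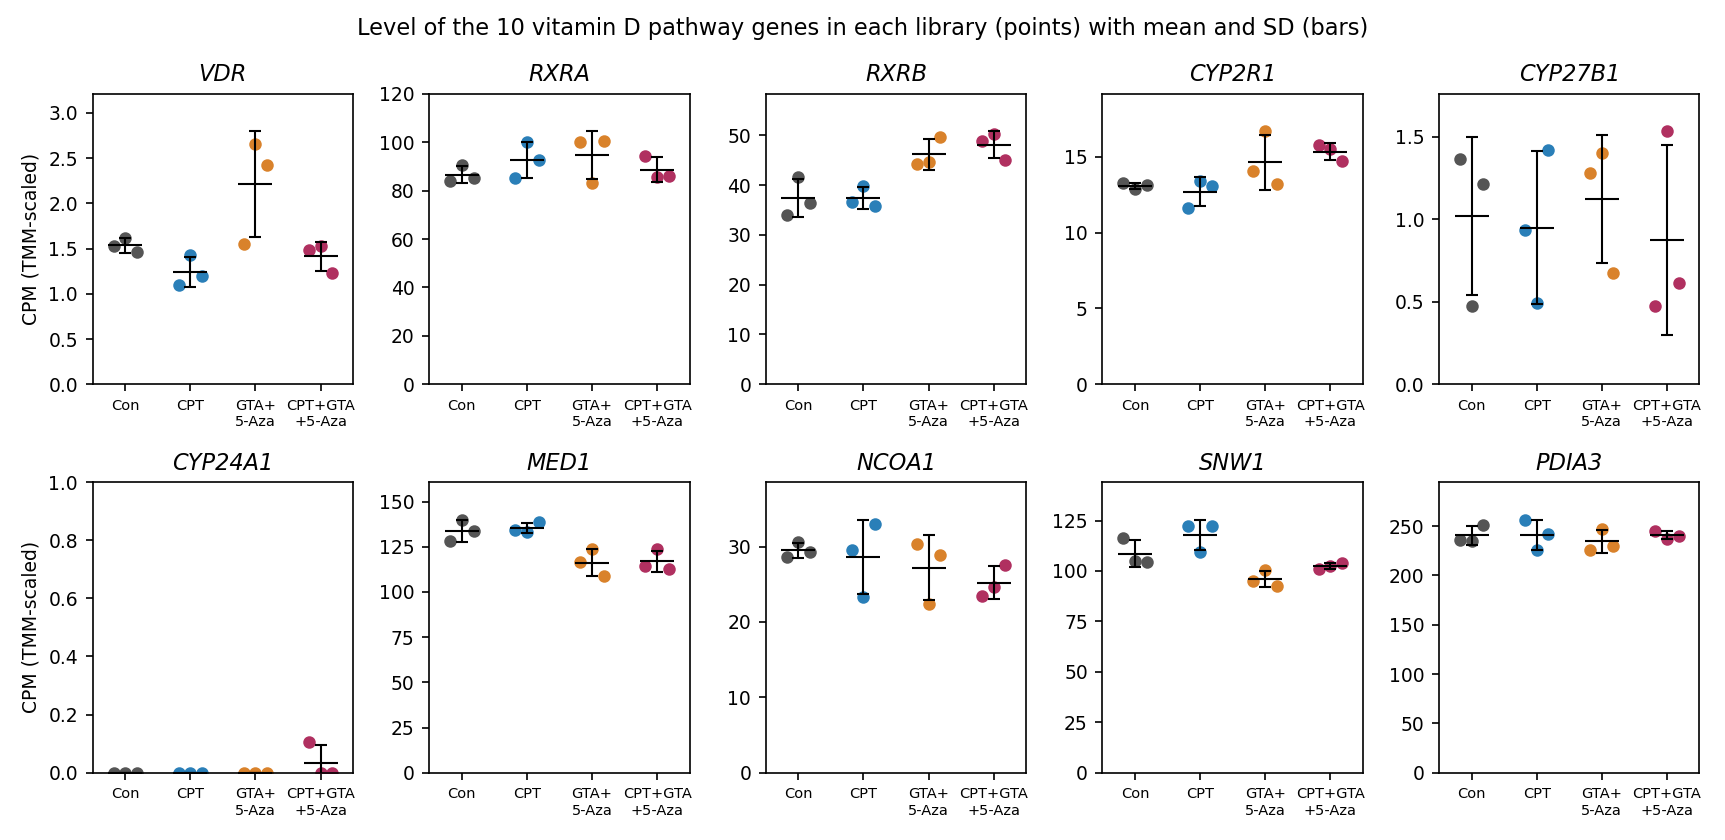
CPM of each of the 10 genes by group, with 1 point per library (n = 3 per group), horizontal bars for the mean and error bars for the SD; each panel has its own axis from 0. RXRB is higher and MED1 and SNW1 are lower in both primed groups, VDR is highest in GTA+5-Aza with wide scatter, and CYP24A1 is at 0 except for 1 library.

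CYP24A1 (ENSG00000019186, chr20:54153446-54173986, minus strand), which degrades the hormone, had 2 counts in CPT+GTA+5-Aza replicate 1 and 0 in each of the other 11 libraries. A total of 0 over the 3 libraries of a group has an exact Poisson upper bound of 0.0609 CPM in Con, 0.0649 in CPT and 0.0654 in GTA+5-Aza. The 2 counts of CPT+GTA+5-Aza correspond to 0.0378 CPM with an upper bound of 0.137 by the same measure. These limits cover counting error only. CYP24A1 was thus not detectable in 11 libraries, the 3 that received CPT alone among them, and no fold change can be given.

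CYP27B1 (ENSG00000111012, chr12:57762334-57768986, minus strand), the 1α-hydroxylase that makes the active hormone, was scattered within every group. Its values were 1.37, 0.477 and 1.22 CPM in Con, 0.935, 0.492 and 1.42 in CPT, 1.28, 1.40 and 0.677 in GTA+5-Aza, and 0.475, 1.53 and 0.612 in CPT+GTA+5-Aza, from 9 to 28 counts. All groups overlapped, and the averaged priming difference of 0.02 on the log2 scale had an interval from -0.82 to 0.85, so changes within these bounds were not detectable at this depth. CYP27B1 shares 107 exonic bases (3.26% of its exons) with METTL1 on the same strand.

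CYP2R1 (ENSG00000186104, chr11:14877440-14892231, minus strand), the main 25-hydroxylase, measured 13.3, 12.9 and 13.2 CPM in Con and 11.6, 13.4 and 13.1 in CPT, against 14.1, 16.7 and 13.2 in GTA+5-Aza and 15.8, 15.5 and 14.8 in CPT+GTA+5-Aza. Primed and unprimed libraries overlapped, with 13.2 CPM in the lowest primed and 13.4 in the highest unprimed library. The averaged difference was 0.22 on the log2 scale (SE 0.09, interval 0.03 to 0.41), which had an unadjusted P of 0.0261 but missed the threshold after adjustment (edgeR adjusted p = 0.0753). With CPT the difference was 0.27 (SE 0.13, edgeR adjusted p = 0.164) and without CPT 0.16 (SE 0.13, edgeR adjusted p = 0.449). When each library's trend with GC content was removed, an alternative added after the data had been seen, the averaged difference was 0.31 and passed (edgeR adjusted p = 0.00821), and it also passed under scaling by library size alone (0.26, edgeR adjusted p = 0.0347).

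Among the coregulators, MED1 (ENSG00000125686, chr17:39404285-39451272, minus strand), the Mediator subunit that contacts nuclear receptors, fell with priming. Its values were 128, 140 and 134 CPM in Con and 134, 133 and 139 in CPT, against 116, 124 and 109 in GTA+5-Aza and 114, 124 and 113 in CPT+GTA+5-Aza. All 6 primed libraries lay below all 6 unprimed ones, as for 6.81% of all tested genes. The log2 fold change was -0.21 on average (SE 0.05, interval -0.30 to -0.11, edgeR adjusted p = 0.00122). It was -0.20 (SE 0.07, edgeR adjusted p = 0.0344) without CPT, -0.21 (SE 0.07, edgeR adjusted p = 0.0279) with CPT and -0.19 (SE 0.07, edgeR adjusted p = 0.0438) for CPT+GTA+5-Aza against Con. CPT gave 0.02 in unprimed cells (interval -0.12 to 0.15) and 0.01 in primed cells (interval -0.13 to 0.15).

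The averaged MED1 change passed under every alternative run. In the separate comparisons it passed in 13 of 20 alternatives without CPT, 14 of 20 with CPT and 11 of 20 for CPT+GTA+5-Aza against Con. The change without CPT was lost when Con replicate 2 (-0.17, edgeR adjusted p = 0.134), Con replicate 3 (-0.21, adjusted p = 0.0909), GTA+5-Aza replicate 1 (-0.20, adjusted p = 0.0952) or GTA+5-Aza replicate 3 (-0.16, adjusted p = 0.182) was left out. The change with CPT was lost without CPT replicate 1 (-0.22, edgeR adjusted p = 0.0635), CPT replicate 3 (-0.20, adjusted p = 0.0673), CPT+GTA+5-Aza replicate 1 (-0.19, adjusted p = 0.111) or CPT+GTA+5-Aza replicate 3 (-0.19, adjusted p = 0.123). Against Con, CPT+GTA+5-Aza lost it in 6 such fits, with log2 fold changes from -0.20 to -0.16 and edgeR adjusted p values from 0.0529 to 0.169. MED1 shares 754 exonic bases (8.76% of its exons) with ENSG00000266469 on the opposite strand, which also fell on average (-0.26, SE 0.10, edgeR adjusted p = 0.0417), and the 2 cannot be told apart in the shared stretch.

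SNW1 (ENSG00000100603, chr14:77717599-77761207, minus strand), a VDR coactivator that is also a spliceosome protein, fell as well. It measured 116, 105 and 104 CPM in Con and 122, 109 and 122 in CPT, against 95.05, 100.3 and 92.6 in GTA+5-Aza and 101, 103 and 104 in CPT+GTA+5-Aza. All 6 primed libraries lay below all 6 unprimed ones, a separation that 6.81% of all tested genes showed in this direction. The margin was narrow, between 104.0 CPM in the highest primed and 104.5 in the lowest unprimed library. The log2 fold change was -0.19 on average (SE 0.05, interval -0.29 to -0.09, edgeR adjusted p = 0.00361) and passed under every alternative run. With CPT it was -0.20 (SE 0.07, edgeR adjusted p = 0.0432), without CPT it was -0.18 (SE 0.07, interval -0.32 to -0.04) and missed the threshold (edgeR adjusted p = 0.0777), and the interaction was -0.02 (SE 0.10, edgeR adjusted p = 1 at 3 digits).

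The SNW1 change with CPT lay close to the threshold and passed in 9 of 20 alternatives. It was lost without CPT replicate 1 (-0.18, edgeR adjusted p = 0.149), CPT replicate 3 (-0.18, adjusted p = 0.114), GTA+5-Aza replicate 1 (-0.20, adjusted p = 0.0596) or any library of CPT+GTA+5-Aza (-0.21 to -0.19, adjusted p = 0.0919 to 0.137). It was also lost under scaling by library size alone (-0.16, edgeR adjusted p = 0.110), without a filter on low counts (-0.20, adjusted p = 0.0727) and with only the groups compared in the fit (-0.20, adjusted p = 0.0709). A replicate block and removal of the GC trend ended the call as well. The change without CPT passed when CPT replicate 2 was left out (-0.18, edgeR adjusted p = 0.0393) and in DESeq2 (-0.19, adjusted p = 0.0478). Against Con, CPT+GTA+5-Aza differed by only -0.08 (SE 0.07, edgeR adjusted p = 0.462). SNW1 had the lowest unadjusted P of the members for CPT, with an averaged log2 difference of 0.11 (SE 0.05, unadjusted P of 0.0386 in edgeR's test), but this did not survive adjustment. It shares 118 exonic bases (4.85%) with SLIRP on the opposite strand, which did not pass in the averaged comparison (-0.15, SE 0.08, edgeR adjusted p = 0.162).

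NCOA1 (ENSG00000084676, chr2:24491254-24770702, plus strand), a p160 coactivator of nuclear receptors, ran from 22.3 to 33.0 CPM with overlapping primed and unprimed libraries. Its averaged priming difference was -0.15 (SE 0.09, interval -0.33 to 0.03, edgeR adjusted p = 0.222). Without CPT replicate 2, the lowest unprimed library, it was -0.22 and passed (edgeR adjusted p = 0.0383). PDIA3 (ENSG00000167004, chr15:43746394-43773279, plus strand), the disulfide isomerase, varied least of the 10, with 225 to 256 CPM and a coefficient of variation of 4.02% over the 12 libraries. Its intervals were narrow, and the averaged priming difference of -0.02 lay between -0.11 and 0.07 and the averaged CPT difference of 0.02 between -0.07 and 0.11.

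**Figure D3:**
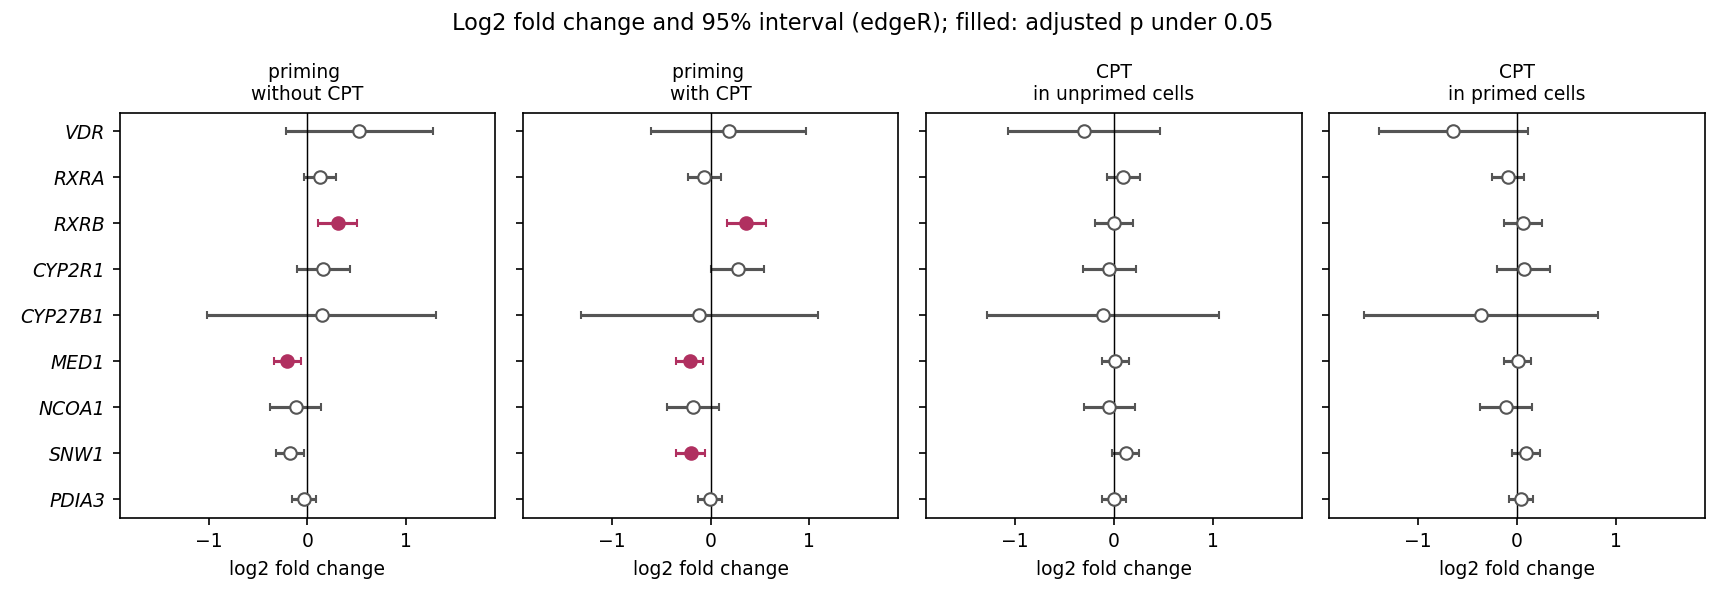
Log2 fold change of the 9 tested members with its 95% interval from the edgeR fit, for priming without and with CPT and for CPT in unprimed and primed cells; filled points passed an adjusted p under 0.05. RXRB lies to the right and MED1 to the left of 0 in both priming comparisons, SNW1 is filled only with CPT, and no point is filled for CPT, where the wide bars belong to VDR and CYP27B1.

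By comparison, priming without CPT called 2 of the 9 tested members (RXRB higher and MED1 lower), where 17.5% of all tested genes were called (9.95% higher and 7.53% lower). Priming with CPT called 3 (RXRB higher, MED1 and SNW1 lower) against a background of 17% (9.57% higher and 7.39% lower), and CPT+GTA+5-Aza against Con called 2 (RXRB and MED1) against 16.8% (9.62% higher and 7.16% lower). These comparisons share control or treated libraries and are not independent of each other. For CPT, edgeR's quasi-likelihood test called 0 members in unprimed cells (background 0%), 0 in primed cells (0%), 0 in the interaction (0%) and 0 on average (0.00584%, which is 1 gene). At an unadjusted P under 0.05 the members numbered 0, 0, 0 and 1, SNW1 being the 1, where 4.28%, 2.71%, 2.63% and 4.51% of all tested genes reached it. DESeq2 and the likelihood ratio test also called 0 members for CPT.

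Over the whole table, log2 fold changes of priming rose with the GC content of the genes, with a median of -0.08 among the 3295 genes lowest in GC and 0.16 among the 3295 highest. RXRB (58.4% GC) belonged to the highest class, while MED1 (44.8%) and SNW1 (44.6%) belonged to the class from 40.8% to 45.7%, where the median was -0.05. With that trend removed from each library, the averaged change was 0.25 for RXRB (edgeR adjusted p = 0.000759), -0.14 for MED1 (adjusted p = 0.00759) and -0.12 for SNW1 (adjusted p = 0.0178). RXRA, with 60.6% GC, moved from 0.03 to -0.08 under this removal (edgeR adjusted p = 0.185). In the separate comparisons the removal ended the calls of RXRB (0.22, edgeR adjusted p = 0.0544) and MED1 (-0.14, adjusted p = 0.103) without CPT and of MED1 (-0.15, adjusted p = 0.0715) and SNW1 (-0.14, adjusted p = 0.0920) with CPT. It also brought a call of CYP2R1 with CPT (0.36, edgeR adjusted p = 0.0418).

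The marker genes of the cell line were checked by group. Of 6 epithelial or ductal markers, the keratins KRT8 (1409 to 1740 CPM) and KRT18 (644 to 854 CPM) were abundant, whereas EPCAM and CDH1 had at most 4 counts in a library. Of 3 mesenchymal markers, VIM (5308 to 6593 CPM) and ZEB1 (46.2 to 65.9 CPM) were expressed and CDH2 had at most 5 counts. Of 9 markers of other cell types, 7 stayed at or under 2.204 CPM, and the collagens COL1A2 (689 to 943 CPM) and COL3A1 (84.8 to 125 CPM) were expressed, while the 4 acinar and endocrine markers were at 0.

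Some of these markers separated the primed from the unprimed libraries. KRT19 and COL1A1 were higher in all 6 primed than in all 6 unprimed libraries and VIM was lower. KRT19 was 1 of 6 epithelial or ductal markers, COL1A1 1 of 9 of other cell types and VIM 1 of 3 mesenchymal. Of all tested genes, 8.04% showed such a separation upward and 6.81% downward. COL1A1 averaged 0.135 CPM in Con and 0.126 in CPT against 1.70 in GTA+5-Aza and 1.44 in CPT+GTA+5-Aza. The summed level of the epithelial or ductal list ran from 2231 to 2391 CPM in Con, 2082 to 2536 in CPT, 2443 to 2625 in GTA+5-Aza and 2481 to 2566 in CPT+GTA+5-Aza. The mesenchymal list summed to 6220 to 6337, 6122 to 6659, 5362 to 5720 and 5490.3 to 5783 CPM in the same order, and the list of other cells to 880 to 933, 780 to 848, 989 to 1070 and 917 to 944 CPM. The part of these shifts in the members' changes was not tested.

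Genes around the members were taken from lists written by role, with earlier results of these data known. Textbook VDR targets, genes that the liganded receptor activates in some tissue, comprised 37 genes including CYP24A1. Of these, 12 had no count in any library, 9 had too few counts to be tested and 16 were tested. Averaged priming called 8 of the 16 higher and 1 lower, where 16.8% of all tested genes were called higher and 14% lower. The median of their log2 fold changes was 0.47 against 0.01 over all tested genes. DUSP10 and FOXO1 reached the filter on low counts only through the primed libraries, where they had to be higher to be tested at all, and the 21 untested targets are not in these figures, so the count and the median describe the tested genes and not the list. The study had already named CDKN1A and DUSP10 as upregulated by priming in these cells. Both are among the targets called higher, as are GADD45A and ATP2B1, which were named after their values had been seen. The contrast with all tested genes was thus partly fixed in advance, for averaged priming and for the separate priming comparisons, and it is a description only. CPT called 0 in every comparison (median 0.02 on average, all genes 0.00). By the study's DEG thresholds, KLF4 was lower with CPT in unprimed cells, in primed cells and on average, and FOXO1, named after its values had been seen, was lower in primed cells (-1.29, SE 0.62, edgeR adjusted p = 1 at 3 digits). The counts were 7 higher and 1 lower for priming without CPT (9.95% and 7.53% of all tested genes), also 7 and 1 with CPT (9.57% and 7.39%), and 8 and 2 for CPT+GTA+5-Aza against Con (9.62% and 7.16%).

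Among the tested targets, the largest change was that of DUSP10, a MAP kinase phosphatase. This gene reached the filter on low counts only through the primed libraries, so its rank and separation are descriptions only. It had 2 counts in Con replicate 1 and 0 in the other 5 unprimed libraries, against 22, 28 and 16 counts in GTA+5-Aza and 32, 38 and 44 in CPT+GTA+5-Aza. No primed library overlapped the unprimed ones, as for 8.04% of all tested genes in this direction. DUSP10 was 35.4-fold higher in GTA+5-Aza than in Con (pooled counts, counting interval 9.43 to 299, which covers counting error only). It had no count in CPT, and its pooled level in CPT+GTA+5-Aza was 40.8-fold above a floor of 3 counts over the CPT group. That ratio leaves out the counting error of the level in CPT+GTA+5-Aza and is not a lower bound. CDKN1A, which encodes the cell cycle inhibitor p21, rose by 2.75 on the log2 scale (SE 0.31, edgeR adjusted p = 1.55e-07), from group means of 0.538 ± 0.268 CPM (SD, n = 3) in Con and 0.655 ± 0.380 in CPT to 3.78 ± 1.64 in GTA+5-Aza and 4.31 ± 1.21 in CPT+GTA+5-Aza. CDKN1B, which encodes the related inhibitor p27, fell by 0.45 (SE 0.06, edgeR adjusted p = 2.46e-06).

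Averaged log2 fold changes of the other called targets were 0.66 for SEMA6B, a semaphorin, 0.50 for SERPINB1, a protease inhibitor, 0.59 for NINJ1, 0.68 for CLMN, and 0.49 and 0.40 for GADD45A and ATP2B1, of which the last 2 were named after their values had been seen. SEMA6B averaged 153 ± 13.3 CPM (SD over 3 libraries) in Con and rose to 242 ± 32.7 in GTA+5-Aza, and it rose from 151 ± 26.9 in CPT to 238 ± 4.12 in CPT+GTA+5-Aza. KLF4, a transcription factor, had the smallest P of the list for CPT. Its log2 difference was -0.59 in unprimed cells (SE 0.24), -0.59 in primed cells (SE 0.25) and -0.59 on average (SE 0.17), with unadjusted P values of 0.0197, 0.0260 and 0.00205 in edgeR's test and adjusted p values of 1, 1 and 0.775. It was also the second target called lower in CPT+GTA+5-Aza against Con (-1.01, SE 0.25, edgeR adjusted p = 0.00468). Of the 8 targets that rose on average, CLMN passed without CPT (0.94, edgeR adjusted p = 0.00130) and not with it (0.41, adjusted p = 0.162), and ATP2B1 with CPT (0.45, adjusted p = 0.0274) and not without it (0.34, adjusted p = 0.103).

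Of 12 genes for metabolism, transport and electron supply of Vitamin D, 4 had no count and 6 were tested. CYP11A1, the side-chain cleavage enzyme that can also hydroxylate Vitamin D, rose by 0.81 on average (SE 0.21, edgeR adjusted p = 0.00416), from 2.22 ± 0.139 CPM (SD, n = 3) in Con and 1.70 ± 0.615 in CPT to 3.22 ± 0.439 in GTA+5-Aza and 3.61 ± 0.460 in CPT+GTA+5-Aza. FDX1, the ferredoxin that passes electrons to mitochondrial P450 enzymes, fell by 0.18 (SE 0.06, edgeR adjusted p = 0.0230). The median over the 6 was 0.04, near the 0.01 of all genes, and its 2 calls of 6 stand beside the 30.9% of all tested genes called. They became 1 without Con replicate 1, CPT replicate 3, GTA+5-Aza replicate 1 or CPT+GTA+5-Aza replicate 1. CYP27A1, a mitochondrial sterol hydroxylase that can act as a 25-hydroxylase, was not tested and had 0 to 6 counts per library. For CPT the smallest P was that of CUBN, which takes up the carrier with its vitamin (-0.13 on average, SE 0.04, unadjusted P of 0.00625 and adjusted p = 0.928 in edgeR's test).

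Among 14 receptors of the RXR partner family, 9 were tested and 4 had no count. THRA, a thyroid hormone receptor, rose by 0.42 on average (SE 0.07, edgeR adjusted p = 8.97e-05) and passed both without CPT (0.48, edgeR adjusted p = 0.00186) and with CPT (0.36, edgeR adjusted p = 0.0198). NR1H2, the liver X receptor beta, rose by 0.26 on average (SE 0.08, edgeR adjusted p = 0.0101), and the other 7 did not pass. These 2 calls of 9 stand below the 30.9% of all tested genes called, and the list's median was 0.08. PPARA had its smallest P for CPT on average (-0.20, SE 0.10, unadjusted P of 0.0441 in edgeR's test), with no call.

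The coregulators fell more broadly. Of 20 coactivators, Mediator subunits and corepressors, not counting MED1 and NCOA1, all were tested, 12 fell and 0 rose in averaged priming, where 14% of all tested genes fell, and 17 of the 20 log2 fold changes were below 0. Their median was -0.19, near the values of MED1 and SNW1. SMARCC1 (-0.29, SE 0.04, edgeR adjusted p = 2.58e-06) and SMARCA4 (-0.29, SE 0.04, adjusted p = 3.56e-06), both subunits of the SWI/SNF chromatin remodeller, had the smallest adjusted p. BAZ1B fell by 0.22, the corepressor subunit TBL1XR1 by 0.33, the Mediator subunit MED24 by 0.30 and TRIM24 by 0.30. The called genes numbered 10 without CPT, 9 with CPT and 11 in CPT+GTA+5-Aza against Con, all of them lower, where 7.53%, 7.39% and 7.16% of all tested genes were lower, and 0 for CPT, where the acetyltransferase KAT2B had the smallest P on average (0.22, SE 0.09, unadjusted P of 0.0151 in edgeR's test). The averaged count stayed between 12 and 14 under every alternative. Without CPT it was 6 when Con replicate 1 and 5 when GTA+5-Aza replicate 1 was left out, with CPT it was 5 without CPT replicate 3 and 4 without CPT+GTA+5-Aza replicate 3, and against Con it was 5 without Con replicate 1 or CPT+GTA+5-Aza replicate 3.

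SMARCC1 illustrates the size of these changes. It measured 300, 278 and 290 CPM in Con and 278, 277 and 291 in CPT, against 227, 239 and 227 in GTA+5-Aza and 235, 232 and 247 in CPT+GTA+5-Aza. Primed and unprimed libraries did not overlap, as for 6.81% of all tested genes in this direction.

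Of 10 ER proteins that work with PDIA3, CANX, the lectin chaperone calnexin, fell by 0.29 (SE 0.04, edgeR adjusted p = 3.94e-06), HSPA5 by 0.22 (SE 0.04, adjusted p = 0.000111) and HSP90B1 by 0.13 (SE 0.04, adjusted p = 0.0239), while CALR, the related lectin calreticulin, rose by 0.13 (SE 0.04, adjusted p = 0.0130) and ERP29 by 0.20 (SE 0.07, adjusted p = 0.0251). The median of the 10 was 0.05. The 5 calls of 10, beside 30.9% of all tested genes, became 2 without Con replicate 1 and 3 without CPT replicate 1, GTA+5-Aza replicate 1 or CPT+GTA+5-Aza replicate 3. Of 10 spliceosome proteins that work with SNW1, 3 fell and 0 rose, namely AQR (-0.29, SE 0.06, edgeR adjusted p = 0.000330), CWC15 (-0.28, SE 0.07, adjusted p = 0.00313) and PRPF19 (-0.15, SE 0.05, adjusted p = 0.0153), with a median of -0.09, and 3 calls of 10 are near the 30.9% of all tested genes. CPT called 0 in both lists, and their smallest P values for averaged CPT were 0.263 (UGGT1) and 0.149 (PPIL1) in edgeR's test. The interaction of CPT and priming called 0 of all listed genes, the smallest P being 0.0647 for SERPINB1.

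**Figure D4:**
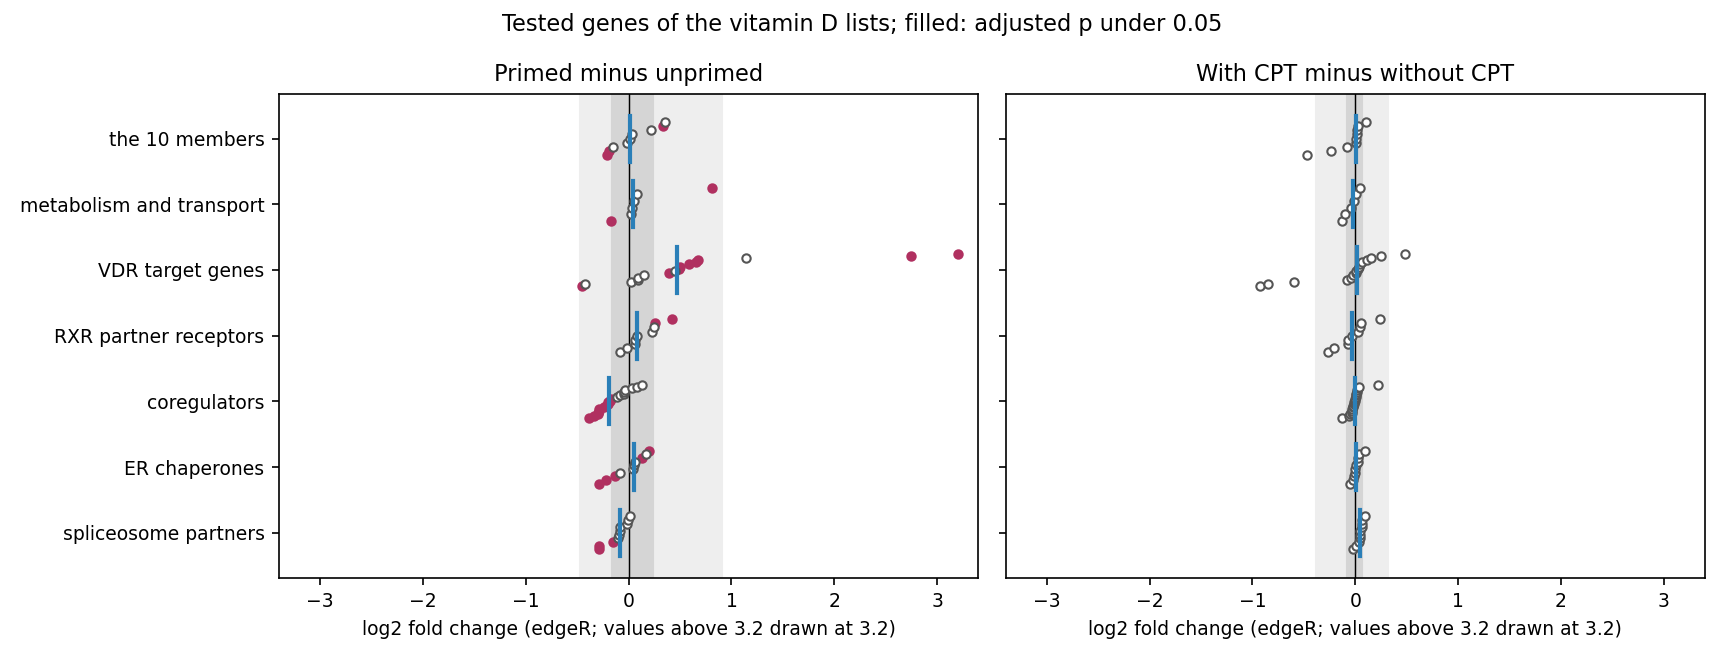
Log2 fold change of every tested gene of the members and the 6 lists, averaged over the other treatment, for priming (left) and CPT (right); filled points passed an adjusted p under 0.05, blue bars are medians, and the grey bands span the middle 50% and 90% of all tested genes (DUSP10 is drawn at the edge). Coregulators lie mostly left and VDR targets mostly right of 0 under priming, and no point is filled under CPT. Among the targets, DUSP10 and FOXO1 reached the count filter only through the primed libraries, so the position of the target list is a description only.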

How the data were processed

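RNA-seq of MiaPaca2 cells covered 12 libraries in 4 groups of 3, grouped by their labelled treatment. The authors deposited raw read counts per Ensembl gene, one column per library, made per the labels and the study's methods from paired-end reads with Trim Galore, HISAT2 2.2.1 and HTSeq on GRCh38. The annotation release and the strand setting are not given in the sources used here, so reads of overlapping genes on opposite strands cannot be told apart. Of 63677 identifiers, 52181 matched GENCODE v44 and held 99.047% of the counts, while 11496 did not match, and 0 rows named no gene.

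Counts were filtered with filterByExpr, leaving 17123 genes, scaled by TMM (factors 0.981 to 1.02) and fitted over all 4 groups with edgeR 4.0.16 (R 4.3.3, limma 3.58.1), using its quasi-likelihood test, Benjamini-Hochberg adjusted p values across the 17123 genes and a threshold of 0.05. CPM are counts scaled to a common total with the TMM factors. Comparisons were priming without and with CPT, CPT in unprimed and primed cells, CPT+GTA+5-Aza against Con, the interaction, and the averages of priming and of CPT. The study's DEG thresholds (fold change above 1.5 and unadjusted P under 0.05) were applied beside this. Alternatives were DESeq2 1.42.0, the likelihood ratio test, other scalings, no filter, a replicate block, fits of only the groups compared and leaving out each library. A removal of each library's GC trend was added after seeing the data. The scripts were tested on simulated data. No pair of libraries within a group agreed within sampling noise (chi-square per degree of freedom 3.88 to 16.6).

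The members and gene lists were chosen with earlier results of these data known. All members are described. From each list at most 6 called genes per comparison are named, by smallest adjusted p, or, where none was called, the gene with the smallest unadjusted P. CYP24A1, RXRG, CYP27A1 and the 5 genes most like VDR are named throughout.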

Additional observations from a re-analysis of the deposited data

How the results depend on the processing

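The averaged priming calls of RXRB, MED1 and SNW1 passed under all 19 alternatives, whose counts of called members ran from 3 to 4, and the CPT comparisons and the interaction called 0 members under every alternative run. Counts for the separate priming comparisons rested on few members near the threshold. Scaling by library size alone left 1 member called in priming without CPT, 1 with CPT and 1 for the triple combination against Con. Testing without a filter on low counts left 1 without CPT and 1 against Con. With the GC trend of each library removed, which was added after seeing the data, 0 members were called without CPT and 1 against Con. In these cases fewer members passed with their directions kept, and the cause was not tested. Leaving out 1 library at a time gave 0 to 3 called members without CPT, 1 to 3 with CPT and 1 to 2 against Con, and 0 to 1 by the study's DEG thresholds for CPT in primed cells, the 1 being VDR without GTA+5-Aza replicate 1. Same-numbered samples did not deviate together (r from -0.0112 to 0.0128 for number 1, -0.0844 to 0.117 for number 2 and -0.0301 to 0.0252 for number 3), and 3 of 12 samples correlated best with their own number. No pairing by number was seen, but with 3 libraries per group such correlations cannot exclude a shared culture or day. A replicate block changed only the SNW1 call with CPT among the members' calls (-0.20, edgeR adjusted p = 0.0577), leaving 2 members called there. By alternative, the averaged list counts ran from 9 to 11 for VDR targets, 12 to 14 for coregulators, 2 to 7 for ER proteins, 2 to 5 for spliceosome proteins, 1 to 3 for RXR partners and 1 to 2 for metabolism. Depth limits VDR and CYP27B1, whose 9 to 53 counts per library leave wide intervals, and CYP24A1, which could not be tested.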
